A study of Mus musculus with 222 samples.

Results

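Bin2, Plin3 and Jak3 are 3 of the 24391 gene symbols counted in a study of mouse primordial germ cells (PGCs), from which sperm and eggs descend. They were picked because their level or their share of positive cells differed between ECKO and Control single cells at E12.5, Bin2 and Plin3 being higher and Jak3 lower in ECKO. The E12.5 values below therefore describe how they were chosen and carry no test. The bulk libraries of E11.5 and E13.5 were not part of the rule of choice and were tested, although earlier results of these data were known when the genes were chosen.

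The embryos came from OG females homozygous for floxed Eed and BC males with 1 floxed and 1 intact Eed allele, on a C57BL/6;129S1/SvlmJ background. OG is an Oct4-GFP reporter, and BC is a Blimp1-Cre driver, active in early germ cells and in some other cells of the embryo. ECKO embryos are labelled Eed -/-, and Control embryos are labelled wild type, although every embryo of this cross inherits a floxed allele from its mother. Which Controls carried BC is not stated in the labels. GFP-positive cells were sorted from gonads, as pools for bulk RNA-seq or singly into wells for Smart-seq2, a full-length single-cell method.

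Bulk groups held 4 Control and 4 ECKO libraries in E11.5 XY, 3 Control and 4 ECKO in E11.5 XX, and 4 Control and 3 ECKO in E13.5 XY, with 415291 to 14974853 counts per library. At E12.5 there were 2 embryos of each sex and genotype and 24 cells per embryo. After cells with few counts were removed, 127 cells remained, between 13 and 22 for each embryo, and their median depth was 1310080 counts. Within each E12.5 group the embryos are called A and B here. The labels name 1 XX ECKO cell ECKO in its title and wild type in its genotype, and the header codes of 1 XX Control and 1 XX ECKO embryo begin alike. Without the only kept XX ECKO cell that carries the number in question, the difference in share between ECKO and Control was 69.2 percentage points for Bin2, 64.4 for Plin3 and -47.7 for Jak3 in XX, against 69.2, 65.4 and -49.0 with it.

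Eed, the targeted gene, was lower in every ECKO library than in every Control of its table. Its level, as CPM (counts scaled to a common library size), averaged 104 ± 27.3 in Control and 33.5 ± 13 in ECKO at E11.5 XY (SD, n = 4 each). It averaged 81.8 ± 5.17 (n = 3) and 21.4 ± 6.70 (n = 4) at E11.5 XX, and 92.8 ± 25.6 (n = 4) and 9.38 ± 5.61 (n = 3) at E13.5 XY. Germ cell markers (Dazl, Ddx4, Pou5f1 and others) were abundant in each group, with summed levels of 1370 to 3469 CPM in bulk libraries. At E12.5, all 127 cells had at least 3 of the 12 germ cell markers at 10 CPM or more. Their sum was lower in ECKO, at 1930 to 2887 CPM in the 4 ECKO embryos and 3712 to 5095 CPM in the 4 Control embryos of E12.5, and at 2028 to 2664 against 2776 to 3469 CPM at E13.5. At E11.5 the ranges of the genotypes overlapped (2047 to 2251 and 2249 to 2742 CPM in XY, 1370 to 2479 and 2054 to 2789 CPM in XX, ECKO first). The part of this shift in the members' levels was not tested.

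EED belongs to the core of the enzyme complex PRC2 (Polycomb repressive complex 2), which methylates lysine 27 of histone H3 and keeps many developmental and cell-type-specific genes silent. The 3 genes belong to unrelated pathways and are best known outside the germ line. BIN2 is an N-BAR domain protein of the amphiphysin family that binds curved membranes, is abundant in leukocytes and takes part in podosome formation and phagocytosis. PLIN3 (also called TIP47) is a widely expressed perilipin that coats newly formed lipid droplets. JAK3 is a tyrosine kinase that binds the common gamma chain of interleukin receptors and passes their signal to STAT transcription factors in lymphocytes.

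Sequence upstream of the start was at hand for 2 of the 3 genes, in RefSeq promoter windows of build GRCm38.p6. The 250 bases before each start are shown because one gene was high and the other low in ECKO cells. CpG dinucleotides are in capitals. The Plin3 window is chr17:56290512-56290761 (minus strand) and the Jak3 window chr8:71676133-71676382 (plus strand), both written 5′ to 3′ along the gene.
Plin3: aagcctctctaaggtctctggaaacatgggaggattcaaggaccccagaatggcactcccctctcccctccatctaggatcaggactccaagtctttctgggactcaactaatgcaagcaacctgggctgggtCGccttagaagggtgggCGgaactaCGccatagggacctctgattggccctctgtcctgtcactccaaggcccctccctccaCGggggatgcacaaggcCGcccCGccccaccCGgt
Jak3: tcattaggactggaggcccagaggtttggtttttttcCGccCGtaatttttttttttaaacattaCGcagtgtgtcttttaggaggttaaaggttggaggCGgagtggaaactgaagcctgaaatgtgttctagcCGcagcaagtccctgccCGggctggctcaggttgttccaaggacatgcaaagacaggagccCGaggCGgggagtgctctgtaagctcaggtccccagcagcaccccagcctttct
The Plin3 window held 7 CpG and 60% G plus C, and the Jak3 window 8 CpG and 52.4%. A CpG number this high or higher occurred in 46.3% and 43.0% of all 32841 RefSeq windows of that length, whose median was 6, so by CpG number both windows were near the middle. On either strand, GGGCGG (the GC box) matched at 3 positions in Plin3 and 1 in Jak3 and was in 32.7% of all windows. CCAAT matched at 1 position in Plin3 and was in 33.9% of windows. Neither window held the E-box CACGTG, found in 6.02% of windows, or the STAT motif TTCNNNGAA, found in 7.02%. These matches are letters in a window and say nothing of binding.

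Bin2 was found in most ECKO cells at E12.5 and in few Control cells. Over the kept cells of an embryo, its level was 0.0696 and 0.181 CPM in XX Control A and B and 124 and 71.9 CPM in XX ECKO A and B. In XY it was 28.5 and 3.86 CPM in Control and 116 and 124 CPM in ECKO. XX Controls were thus nearly without Bin2 counts (7 in all), whereas XY Controls had some, and the embryos of the genotypes did not overlap in either sex. The ratio of pooled levels was 835 in XX and 8.93 in XY.

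A gene was scored as present in a cell at 10 CPM or more. Bin2 was present in 0 of 14 and 0 of 16 XX Control cells (upper limits of 21.4% and 18.8% for a count of 0), and in 13 of 13 and 5 of 13 XX ECKO cells. The exact 95% intervals of the XX ECKO shares were 75.3 to 100% and 13.9 to 68.4%, so the ECKO embryos themselves differed. XY Control embryos had Bin2 in 3 of 13 and 2 of 22 cells, and XY ECKO embryos in 16 of 18 and 11 of 18. The 5 positive XY Control cells had Bin2 at 23.9 to 177 CPM, which overlaps the range of the positive ECKO cells (24.7 to 964 CPM). The level of XX ECKO B came largely from 2 cells, which held 501 and 384 of its 1123 Bin2 counts. Sequencing depth moved with Bin2 in XX ECKO, where cells with it had a median of 1935663 counts and cells without it 394897. After thinning every cell to 50000 counts, a Bin2 count remained in 92.3% and 46.2% of XX ECKO cells and in none of the 30 XX Control cells.

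Plin3 was absent or nearly absent from Control cells and present in ECKO cells of both sexes. Its level was 0.0696 and 0 CPM in XX Control A and B (2 counts in all), 194 and 52.3 CPM in XX ECKO, 0 and 0 CPM in XY Control, and 13.7 and 23.7 CPM in XY ECKO. XX ECKO embryos lay above XY ECKO embryos. The pooled ratio was 3929 in XX, with an exact 95% counting interval of 1087 to 32451 because the Controls had 2 counts. In XY Plin3 was at least 229-fold higher in ECKO, against a floor of 3 counts over the Control group.

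No Control cell reached 10 CPM of Plin3, in 14, 16, 13 and 22 cells of the 4 Control embryos, which allows shares of up to 21.4%, 18.8%, 23.1% and 13.6%. ECKO embryos had Plin3 in 10 of 13 and 7 of 13 cells in XX and in 4 of 18 and 3 of 18 in XY. Where present, its median level was 202 and 91.3 CPM in XX ECKO A and B and 40.3 and 226 CPM in XY ECKO A and B. The XX and XY cells therefore differed in how many held Plin3 and overlapped in the level per positive cell. Thinned to equal depth, the shares were 84.6% and 53.8% in XX ECKO and 16.7% and 22.2% in XY ECKO.

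Jak3 went the other way, from most Control cells to a minority of ECKO cells. Its level was 199.6 and 229.6 CPM in XX Control A and B and 14.6 and 13 CPM in XX ECKO. In XY it was 164 and 116 CPM in Control and 42.2 and 43.3 CPM in ECKO. Control was 15.3 times ECKO in XX and 3.14 times ECKO in XY, and both XX ECKO embryos lay below both XY ECKO embryos. Jak3 was present in 9 of 14 and 14 of 16 XX Control cells, 12 of 13 and 17 of 22 XY Control cells, 4 of 13 and 3 of 13 XX ECKO cells, and 7 of 18 and 7 of 18 XY ECKO cells. Among positive cells, the median level was 142 to 254 CPM in the 4 Control embryos and 33.7, 127, 49.1 and 151 CPM in XX ECKO A and B and XY ECKO A and B. Some ECKO cells thus held Jak3 at a Control-like level, up to 325 CPM, while 21 of the 62 ECKO cells had it present at all.

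**Figure D1:**
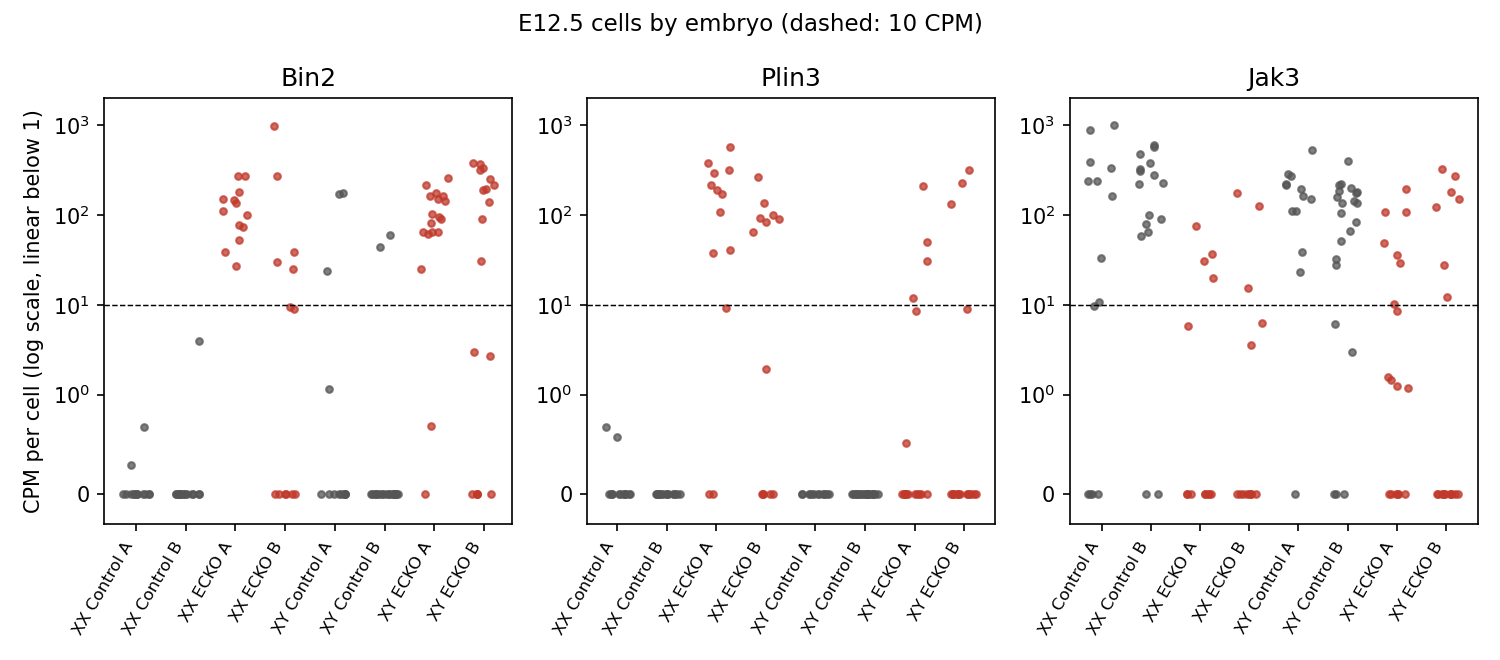
Level of Bin2, Plin3 and Jak3 in each kept E12.5 cell (CPM, log scale that is linear below 1), by embryo, Control in grey and ECKO in red, with a dashed line at 10 CPM. Plin3 lies below the line in all Control cells, and Bin2 above it in 5 XY Control cells, 18 XX ECKO cells and 27 XY ECKO cells.

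**Figure D2:**
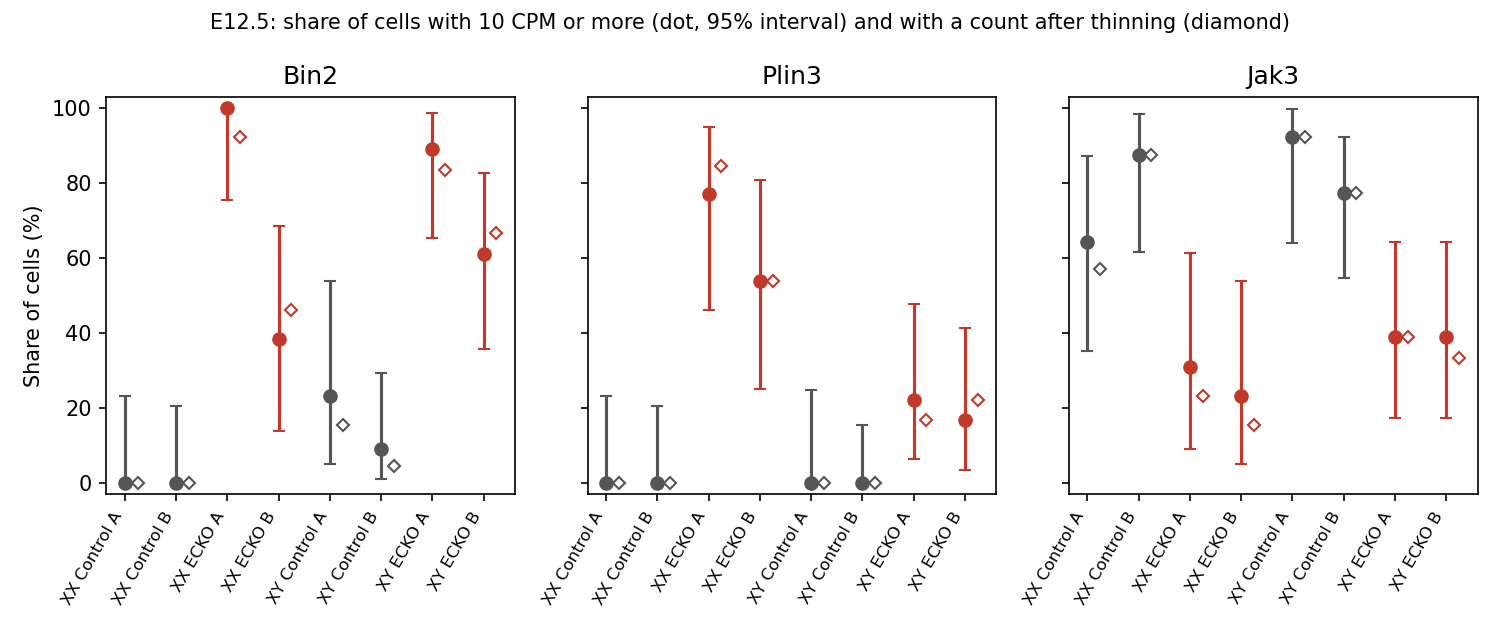
Share of E12.5 cells (%) with 10 CPM or more of each gene, by embryo, with exact 95% intervals over cells (dots and bars), and share with any count after thinning to 50000 counts (diamonds). Every ECKO embryo lies above both Controls of its sex for Bin2 and Plin3 and below both for Jak3.

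These shares place the members among many others. Of 9812 genes present in enough cells, 656 (6.69%) had a higher share in every ECKO embryo than in every Control of its sex in both sexes, and 495 (5.04%) a lower one. Ranked by the smallest gap between ECKO and Control embryos, Bin2 was 9th among the higher genes with a gap of 38.0 percentage points, Plin3 94th with 16.7, and Jak3 7th among the lower genes with 33.5. Next to Bin2 stood Cadm1, a cell adhesion gene (39.6), and Fam69b (36.8). After Jak3 came Pecam1, an adhesion molecule of endothelial and early germ cells (32.2).

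Co-occurrence was counted in the same cells. Of the 62 ECKO cells, 8 had none of the 3 genes present, 24 had 1, 24 had 2 and 6 had all 3. Bin2 or Plin3 was present in 50 of them, 33 without Jak3 and 17 with it, and Jak3 stood alone in 4. Of the 65 Control cells, 47 had Jak3 alone, 5 had Bin2 together with Jak3, 13 had none, and no cell had Plin3. The 5 Bin2-positive XY Control cells were all Jak3-positive. Mixed cells with a gene of either direction were therefore found in ECKO of both sexes, 7 of 26 in XX and 10 of 36 in XY.

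Within ECKO embryos the numbers of cells with 2 of the genes lay near those that the shares give. Bin2 and Plin3 were together in 19 cells, where the products of the shares within each embryo sum to 18.1. Bin2 and Jak3 were together in 16 cells against 15.7, and Plin3 and Jak3 in 7 against 7.41. By embryo, Bin2 and Plin3 met in 10 cells of XX ECKO A (product 10), 3 of XX ECKO B (2.69), 4 of XY ECKO A (3.56) and 2 of XY ECKO B (1.83). In XX ECKO A, Bin2 was present in 13 of 13 cells, so its numbers with Plin3 and with Jak3 (4 cells) had to equal the products. That embryo holds 10 of the 19 cells with Bin2 and Plin3, and these cannot show whether the 2 genes occur together. As a description over the 62 ECKO cells, which share embryos and differ in depth, the phi coefficient of presence was 0.117 for Bin2 and Plin3, 0.0579 for Bin2 and Jak3 and -0.0790 for Plin3 and Jak3.

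**Figure D3:**
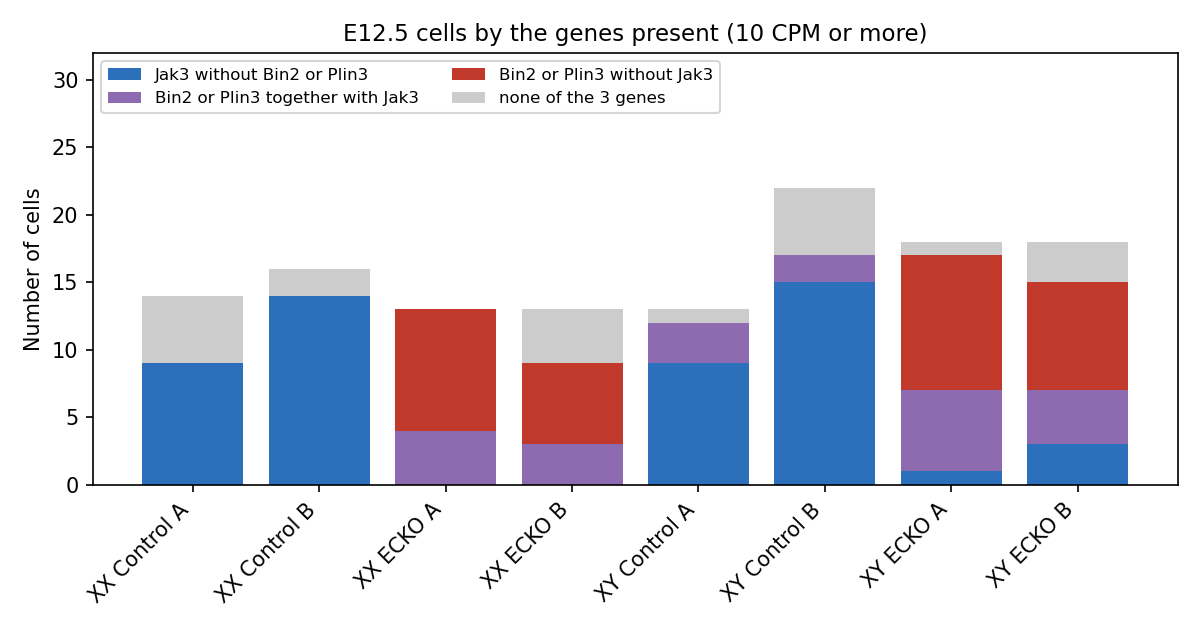
Number of kept E12.5 cells per embryo by which of the 3 genes were present at 10 CPM or more. Jak3 without the others fills most of each Control bar, while in ECKO 33 cells had Bin2 or Plin3 without Jak3 and 17 had either together with Jak3.

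Eed counts were still found in part of the ECKO cells, and members were compared between ECKO cells with and without them. In XX ECKO, Bin2 was present in 9 of 12 cells with Eed and 9 of 14 without, Plin3 in 9 of 12 and 8 of 14, and Jak3 in 4 of 12 and 3 of 14. In XY ECKO, Bin2 was present in 14 of 19 cells with Eed and 13 of 17 without, Plin3 in 2 of 19 and 5 of 17, and Jak3 in 8 of 19 and 6 of 17. The deleted exons are not given in the labels, and a count may come from an exon that remains. Stra8, the gene that opens meiosis, was present in 25 of 26 XX ECKO cells. These include all 18 Bin2-positive, all 17 Plin3-positive and all 7 Jak3-positive cells, and only 1 XX ECKO cell lacked Stra8. In XY ECKO Stra8 was present in 5 of 36 cells. Most Bin2-positive (25 of 27), Plin3-positive (6 of 7) and Jak3-positive cells (13 of 14) lacked it.

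The genes whose presence was most like that of each member in the 62 ECKO cells were found among 8542 genes. For Bin2 they were Utp18 (phi 0.660), Gemin6 (0.642), Mrpl21 (0.626), March5 (0.615) and Oat (0.614). For Plin3 they were Spint1 (0.530), Sdr39u1 (0.520), Stxbp3 (0.519), Pex2 (0.518) and Aga (0.516). For Jak3 they were Casp9 (0.481), Ndufaf6 (0.449), and Kctd17, Lrrn4 and Mb21d1 (0.427 each). The members' own phi values with each other were lower than all of these, and depth is shared by all genes of a cell.

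BIN2 is abundant in leukocytes, so 20 leukocyte markers were counted in the same cells. Of 50 Bin2-positive cells, 33 had none of them at 10 CPM or more, 15 had 1, 2 had more, and none had Ptprc, which encodes the pan-leukocyte antigen CD45. Over all kept cells, 2 cells of XX Control A had 2 or more of these markers. So had 1 cell each of XX ECKO B, XY ECKO A and XY ECKO B, and none of the other embryos. No kept cell had 3 or more. Dazl or Ddx4, genes of RNA-binding proteins of germ cells, was present in 45 of the 50 Bin2-positive cells, 22 of 24 Plin3-positive cells and 68 of 73 Jak3-positive cells, and in 118 of all 127. Summed mesenchymal markers were 254 CPM in XX ECKO B and 0.141 to 26.2 CPM in the other embryos. Their part in the levels of that embryo was not tested. Supporting-cell markers also moved with genotype: 3 or more of the 14 were present in 3, 3, 2 and 2 cells of XX ECKO A and B and XY ECKO A and B and in no Control cell. Their sum was 174 CPM in XX ECKO B, the highest of the 8 embryos, 57.5 to 95.1 CPM in the other ECKO embryos and 24.1 to 118 CPM in Controls. Of these 10 ECKO cells, Bin2 was present in 4 of 6 in XX and 3 of 4 in XY, Plin3 in 4 of 6 and 0 of 4, and Jak3 in 2 of 6 and 2 of 4. Without them, an alternative chosen after seeing the data, the difference in share between ECKO and Control was 70 percentage points in XX and 58.9 in XY for Bin2, against 69.2 and 58.9 with them. For Plin3 it was 65 and 21.9, against 65.4 and 19.4. For Jak3 it was -50.9 and -47.3, against -49.0 and -45.9.

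At E11.5 in XY, 1 day before the cells the genes were picked from, the members had the same signs, and the 2 that passed the filter on low counts were not called by edgeR. Bin2 was at 24, 4.82, 4.38 and 1.65 CPM in the 4 Controls and at 28.9, 48.5, 10.9 and 16.2 CPM in the 4 ECKO libraries. The groups overlapped through Control 1. The log2 fold change was 1.61 (SE 0.67, edgeR quasi-likelihood test, adjusted p = 0.241), and without Control 1 it was 2.89 with an adjusted p of 0.0182. Jak3 was at 54.3, 69.9, 81.3 and 57.0 CPM in Controls and at 61.8, 29.0, 35.7 and 10.7 CPM in ECKO. It overlapped through ECKO 1, and its log2 fold change was -0.92 (SE 0.37, edgeR adjusted p = 0.220). In a pool, fewer cells with a gene and less RNA of it per cell cannot be told apart. Neither of the 2 tested members was called, in a comparison where edgeR called 2.13% of 12497 genes (189 higher, 77 lower; 226 and 46 with total-count scaling). Both had an unadjusted p under 0.05, as had 2007 genes, and DESeq2 called neither. The share called depends on single Controls: 266 genes fell to 64 without Control 2 and to 65 without Control 4.

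Plin3 had too few counts at E11.5 to enter that fit and was compared by itself. In XY it was at 0.380, 0.109, 0.188 and 0.132 CPM in Controls and at 0.620, 4.33, 5.09 and 13.6 CPM in ECKO, from 10 and 243 counts. The lowest ECKO library, ECKO 1, lay just above the highest Control, and no overlap with ECKO higher occurred in 4.88% of all genes tested there. Those genes, unlike Plin3, had passed the filter on low counts. The pooled level was 29.3 times higher in ECKO, with a two-sided exact permutation p of 0.0286, the smallest that 4 against 4 can give. With no filter on low counts, edgeR gave 4.80 on the log2 scale (SE 1.20, adjusted p = 0.0215), and 3.98 to 5.26 with each library left out in turn. The call was lost without Control 2 (adjusted p = 0.0646), Control 4 (0.0649) or ECKO 4 (0.125). Plin3 passed the filter in a joint fit of all 22 bulk libraries, where it was not called (4.77, SE 1.06, edgeR adjusted p = 0.0673).

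At E11.5 in XX the signs were again the same. Bin2 was at 24.6, 20.6 and 7.83 CPM in the 3 Controls and at 133, 11.2, 38.2 and 43.7 CPM in the 4 ECKO libraries, with overlap through ECKO 2. The log2 fold change was 1.84 (SE 0.70, edgeR adjusted p = 0.278), and 0.96 without ECKO 1, the library at 133 CPM. Jak3 was at 49.3, 76.6 and 59.2 CPM in Controls and at 20.3, 44.8, 22.9 and 18.3 CPM in ECKO, with no overlap, as in 5.91% of genes. Its log2 fold change was -1.22 (SE 0.38, edgeR adjusted p = 0.190). Neither tested member was called in XX, where edgeR called 0.172% of 11058 genes, a share that is 0 without any 1 of the Controls and 1 gene without ECKO 1. Both members had an unadjusted p under 0.05, as had 1542 genes, and DESeq2 called neither.

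Plin3 had no count in the 3 XX Controls. The 4 ECKO libraries held 4.66, 0.747, 2.08 and 10.7 CPM (79 counts), so the groups did not overlap, as in 6.98% of genes tested there. Those genes, unlike Plin3, had passed the filter on low counts. Against a floor of 3 counts over the Control group, Plin3 was at least 9.12-fold higher in ECKO. The two-sided exact permutation p of 0.0571 is the smallest that 3 against 4 can give, so this design cannot pass 0.05. With no filter, edgeR gave 6.78 (SE 2.31, adjusted p = 0.151), a fitted value against Controls with no count, which with each library left out was not called.

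**Figure D4:**
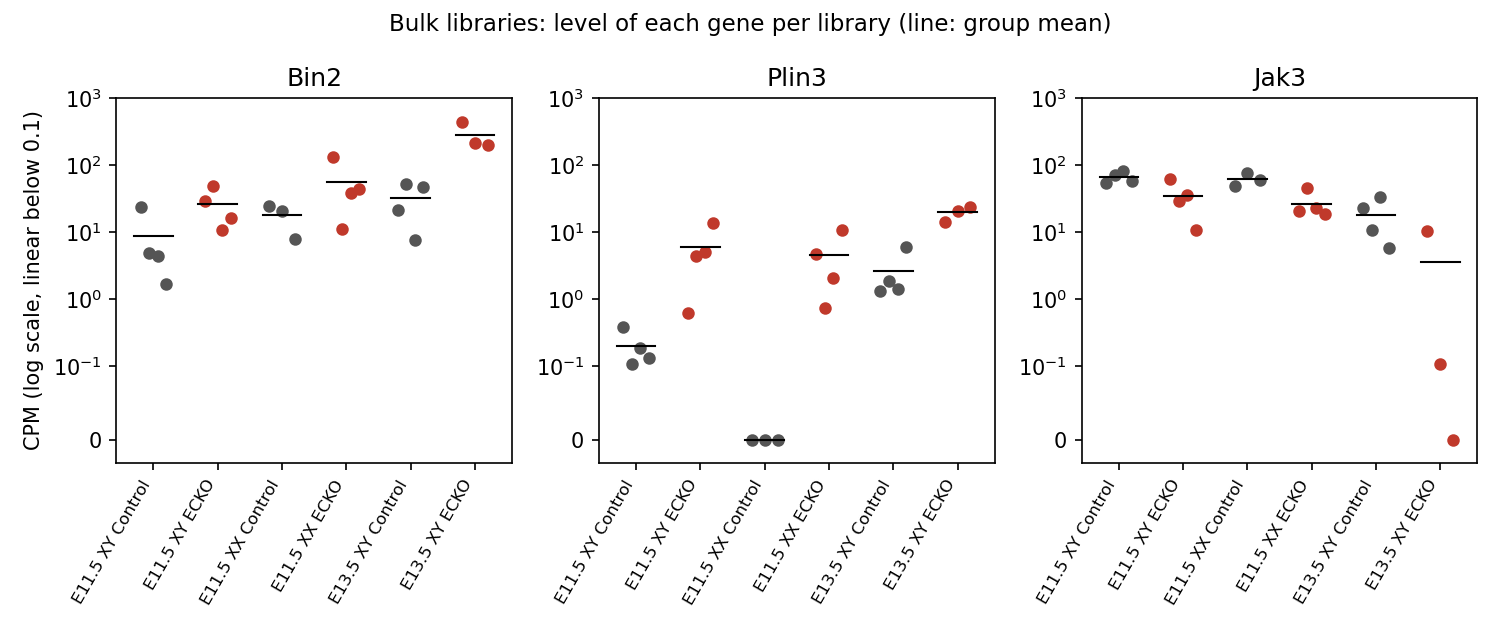
Level of Bin2, Plin3 and Jak3 in each of the 22 bulk libraries (CPM, log scale that is linear below 0.1), by group, Control in grey and ECKO in red, with a line at the group mean. Bin2 is highest in the 3 E13.5 ECKO libraries (201 to 435 CPM), Plin3 is at 0 in the 3 E11.5 XX Controls, and Jak3 is at 0.107 and 0 CPM in 2 E13.5 ECKO libraries.

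Markers of other cells moved with some of these E11.5 libraries. XY ECKO 2 and XX ECKO 1, the highest of their groups for Bin2, had leukocyte marker sums of 334 and 389 CPM. The other ECKO libraries had 11.2 to 40.4 CPM in XY and 58.2 to 90 CPM in XX, and Controls had 15.6 to 44.9 and 20.7 to 173 CPM. Controls 1, 2 and 3 of XX had sums of 173, 107 and 20.7 CPM, in the same order as their Bin2 levels (24.6, 20.6 and 7.83 CPM). In XY, Control 4 had the highest sum of the Controls (44.9 CPM) and the lowest Bin2 (1.65 CPM). None of the 20 markers was at 0 in XY ECKO 2 or XX ECKO 1, and Ptprc was at 7.72 and 4.28 CPM. Single markers did not all go with Bin2. XY ECKO 3, the lowest of its group for Bin2 (10.9 CPM), had Ptprc at 4.62 CPM. Its marker sum was 24.9 CPM, with 1 marker at 0. Spi1, another of the 20, was at 9.24 CPM in XY Control 4, its highest level at E11.5. Without XY ECKO 2 the log2 fold change of Bin2 was 1.12, and without XX ECKO 1 it was the 0.96 given above. ECKO 4 of each sex, the highest for Plin3, had the highest sum of interstitial and mesenchymal markers, 618 CPM in XY and 1447 CPM in XX, against 44.3 to 153 and 39.5 to 193 CPM in the other libraries of each table. Without ECKO 4 the unfiltered edgeR value of Plin3 was 3.98 (adjusted p = 0.125) in XY, where its call was lost, and 5.92 (adjusted p = 0.313) in XX. The part of either marker list in the levels was not tested beyond these values.

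At E13.5 in XY, 1 day after the E12.5 cells, Bin2 was called higher in ECKO. It was at 21.4, 52.1, 7.51 and 46.3 CPM in the 4 Controls and at 435, 216 and 201 CPM in the 3 ECKO libraries. The groups did not overlap, as in 12.2% of genes in that direction. The log2 fold change was 3.16 (SE 0.57, edgeR adjusted p = 0.0137), and Bin2 was called with each library left out in turn (2.64 to 3.49, adjusted p 0.0111 to 0.0500). In this comparison 4.90% of 12336 genes were called and 2.99% were called higher, against 1 of the 3 members. That share fell to 94 genes without Control 4 and rose to 2141 without ECKO 1, from 604.

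Leukocyte markers did not move with Bin2 at E13.5. Their sum was 1.69, 14 and 39.0 CPM in ECKO 1, 2 and 3, and 1.61 to 19.6 CPM in Controls. ECKO 1, with the highest Bin2 level of all 22 bulk libraries, had 18 of the 20 markers at 0, and Ptprc was at 0 in all 3 ECKO libraries. Endothelial markers, some of which early germ cells share, were lower in ECKO (32.4 to 76.7 CPM) than in Controls (149.9 to 221 CPM), and supporting-cell markers overlapped (37.6 to 116 and 17.2 to 228 CPM).

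**Figure D5:**
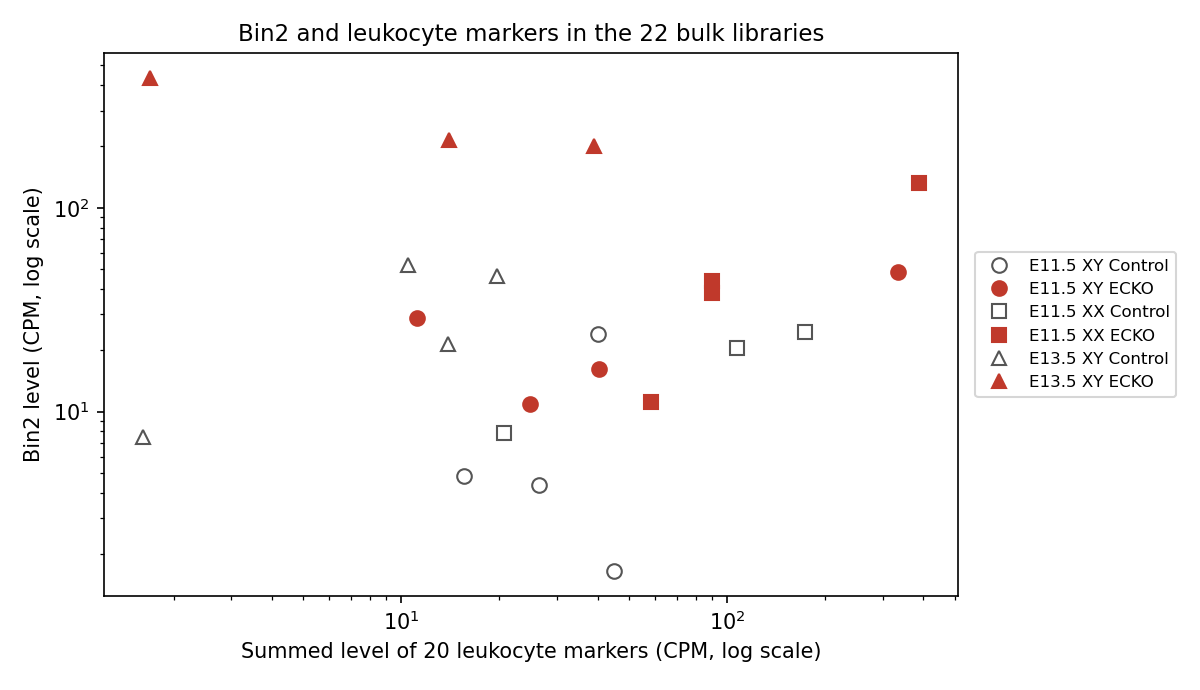
Bin2 level against the summed level of 20 leukocyte markers in the 22 bulk libraries (both in CPM on log scales), with shape for table and colour for genotype. The 3 E13.5 ECKO libraries (201 to 435 CPM of Bin2) have marker sums of 1.69 to 39.0 CPM, while the highest Bin2 library of each E11.5 ECKO group has a sum of 334 or 389 CPM.

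Plin3 at E13.5 was at 1.30, 1.85, 1.42 and 5.97 CPM in Controls and at 14.2, 20.5 and 24 CPM in ECKO. The groups did not overlap, as in 12.2% of genes tested there with ECKO higher. The log2 fold change of 2.87 (SE 0.85) missed the threshold in edgeR (adjusted p = 0.0713). It passed with DESeq2 (2.97, adjusted p = 0.00270), in a joint fit of all bulk libraries (2.89, adjusted p = 0.0402) and without ECKO 1 (3.00, adjusted p = 0.0435). Of the 7 edgeR fits with a library left out, only that 1 was called (adjusted p 0.0435 to 0.215). Mesenchymal marker sums were 86.3, 271 and 269 CPM in ECKO and 119 to 177 CPM in Controls. ECKO 1 had the lowest of these sums and also the lowest Plin3 level of the ECKO libraries (14.2 CPM). The part of these markers in the Plin3 levels was not tested.

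Jak3 at E13.5 was at 22.9, 10.9, 33.3 and 5.76 CPM in Controls and at 10.53, 0.107 and 0 CPM in ECKO. ECKO 1 lay inside the Control range, while ECKO 2 and 3 held almost none. The log2 fold change was -2.32 (SE 1.46, edgeR adjusted p = 0.371). Without ECKO 1 it was -8.22, a fitted value against almost no counts, with an adjusted p of 0.00660. Eed was at 3.06 CPM in ECKO 1 and at 13.8 and 11.3 CPM in ECKO 2 and 3. The part of Eed in these Jak3 levels was not tested.

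Whether the ECKO effect differed between sexes at E11.5 was tested by an interaction term, XX effect minus XY effect on the log2 scale. The difference was 0.26 for Bin2 (95% interval -1.78 to 2.30), -0.30 for Jak3 (-1.40 to 0.81) and 3.44 for Plin3 (-2.69 to 9.56), with edgeR adjusted p-values of 0.992, 0.978 and 0.939. The Plin3 value rests on XX Controls with no count. None of 14185 genes was called by edgeR, 747 had an unadjusted p under 0.05 (no member among them), and DESeq2 called 1. These intervals are wide, and the test does not show that the sexes were alike.

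The change of the ECKO effect from E11.5 to E13.5 in XY was tested in the same way. It was 1.56 for Bin2 (95% interval -0.28 to 3.39, edgeR adjusted p = 0.405), -1.90 for Plin3 (-4.38 to 0.58, 0.461) and -1.47 for Jak3 (-3.97 to 1.03, 0.589). No member was among the 1.20% of 14447 genes called by edgeR, none had an unadjusted p under 0.05, and DESeq2 called none of the 3. Without E13.5 ECKO 1 the Jak3 value was -7.29 with an adjusted p of 8.9e-04, and the share of genes called rose from 173 to 1267 genes.

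In Control XY cells Bin2 and Plin3 rose from E11.5 to E13.5. Bin2 was higher at E13.5 by 1.88 on the log2 scale (SE 0.66, edgeR adjusted p = 0.0351), from 8.71 ± 10.3 to 31.8 ± 21 CPM (SD, n = 4 each). Plin3 was higher by 3.63 (SE 0.97, edgeR adjusted p = 0.00727), from 0.202 ± 0.123 to 2.64 ± 2.24 CPM. Jak3 averaged 65.6 CPM (54.3 to 81.3) and 18.2 CPM (5.76 to 33.3), a value of -1.85 (SE 0.87) that missed the threshold (edgeR adjusted p = 0.111). Against 31.5% of all genes called here (15.8% higher), 2 of 3 members were called. The Bin2 call was lost, with an adjusted p of up to 0.0989, without any 1 of Controls 2, 3 and 4 of E11.5 or Controls 2 and 4 of E13.5. Stage and table cannot be told apart, the median over all genes was -0.14 (-0.32 with total-count scaling), and these Controls also enter the ECKO comparisons.

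Ordered by group mean over the 6 bulk groups, Bin2 was highest in E13.5 XY ECKO (284 ± 131 CPM, n = 3), followed by E11.5 XX ECKO (56.6 ± 53.1, n = 4), E13.5 XY Control, E11.5 XY ECKO, E11.5 XX Control (17.7 ± 8.78, n = 3) and E11.5 XY Control. Only the first step was free of overlap between neighbouring groups. Plin3 ran from E13.5 XY ECKO (19.6 ± 4.95 CPM) through E11.5 XY ECKO (5.91 ± 5.48), E11.5 XX ECKO (4.55 ± 4.41) and E13.5 XY Control to E11.5 XY Control and E11.5 XX Control. Only the 2 E11.5 ECKO groups, and E11.5 XX ECKO with E13.5 Control, overlapped as neighbours. Jak3 ran from E11.5 XY Control through E11.5 XX Control (61.7 ± 13.8), E11.5 XY ECKO (34.3 ± 21.2), E11.5 XX ECKO (26.6 ± 12.3) and E13.5 XY Control to E13.5 XY ECKO (3.55 ± 6.05), and every pair of neighbours overlapped.

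Genes with the most similar bulk pattern were taken from 13635 genes by Pearson's r of log2(CPM + 1) over the 22 libraries, given with the value after group means were removed. They share libraries, depth and the genotype contrast, and carry no p. For Bin2 they were Reln (0.88, then 0.55), Nrap (0.86, 0.69), Elf4 (0.86, 0.60), Ssh2 (0.86, 0.66) and Chd7, a chromatin remodeller (0.85, 0.83). For Plin3 they were Mpzl2 (0.92, 0.72), Pogk (0.91, 0.63), Arnt2 (0.91, 0.69), Igf1r, the IGF1 receptor (0.90, 0.57), and Rspo1, a WNT enhancer of the ovary (0.89, 0.60). For Jak3 they were Plcd1 (0.92, 0.67), Nanog, a pluripotency factor (0.92, 0.70), Lrrc34 (0.92, 0.71), Gstm3 (0.91, 0.75) and Ubxn8 (0.91, 0.74). Among the members, Plin3 and Jak3 had r of -0.86 (-0.68 after group means were removed), Bin2 and Plin3 0.73 (0.22), and Bin2 and Jak3 -0.73 (-0.15).

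The closest relatives of the members were not called in any of the 3 bulk comparisons. Plin2, the other perilipin of most non-fat cells, was at 0.869, 0.352, 0.129 and 1.07 CPM in E13.5 Controls and at 6.00, 1.93 and 35.0 CPM in ECKO, and its log2 fold change was 4.53 (SE 1.24, edgeR adjusted p = 0.0545). At E12.5 it was at 2.24 ± 1.89 CPM in XX Control and 31.8 ± 4.89 in XX ECKO, and 4.82 ± 5.32 and 9.37 ± 7.06 CPM in XY (SD, n = 2 embryos each). Jak1, the kinase that pairs with JAK3 on common gamma chain receptors, was opposite to Jak3 in sign, with log2 fold changes of 0.36, 0.92 and 0.42 in E11.5 XY, E11.5 XX and E13.5 XY (edgeR adjusted p = 0.522, 0.188 and 0.432). At E12.5 Jak1 was at 38.6 ± 21.5 and 94.5 ± 27.0 CPM in XX Control and ECKO, and at 33.8 ± 19 and 63.8 ± 4.12 CPM in XY. The log2 fold changes of Jak2, Tyk2, Bin1 and Bin3, 2 further Janus kinases and 2 further BAR domain genes, lay between -0.80 (Tyk2, E11.5 XX) and 2.63 (Bin1, E11.5 XX, adjusted p = 0.142).

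Of the wider pathways, the common gamma chain and JAK-STAT list had 27, 26 and 27 genes other than Jak3 tested in E11.5 XY, E11.5 XX and E13.5 XY. edgeR called none at E11.5 in either sex. At E13.5, where it called 4.90% of all genes, it called 2 of the list higher and 1 lower. Among these were the transcription factor gene Stat3 (log2 fold change 3.38, SE 0.72, adjusted p = 0.0239) and Socs2, a feedback inhibitor of cytokine signalling (-1.69, SE 0.33, adjusted p = 0.0171). Stat3 was at 2.98 to 17.6 CPM in E13.5 Controls and 28.8 to 189 CPM in ECKO. The list's median log2 fold change was 0.06, -0.02 and 0.36, against 0.00, 0.03 and 0.05 over all genes.

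The perilipin and lipid droplet list had 24, 22 and 22 genes other than Plin3 tested, with none called at E11.5 in either sex. At E13.5, where 4.90% of all genes were called, 2 rose and 1 fell. Abhd5, the co-activator of the lipase ATGL, rose by 4.47 on the log2 scale (SE 0.83, edgeR adjusted p = 0.0149), and Dgat2, which makes triglycerides, by 2.87 (SE 0.71, adjusted p = 0.0395). Hsd17b11, a lipid droplet dehydrogenase, fell by 3.91 on the log2 scale (SE 0.69, adjusted p = 0.0126). The list's medians were 0.00, 0.18 and 0.24.

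The BAR domain and podosome list had 32, 31 and 31 genes other than Bin2 tested. Gas7, an F-BAR gene, rose at E11.5 XY (3.38, SE 0.63, edgeR adjusted p = 0.0132), and no gene was called at E11.5 XX. At E13.5 the podosome scaffold gene Sh3pxd2b rose (2.76, adjusted p = 0.0386), and the F-BAR genes Srgap3 (-2.98, adjusted p = 0.00328) and Fnbp1 (-1.72, adjusted p = 0.0259) fell. The medians were 0.30, 0.51 and 0.18. The calls in each list were few in number, and no list was tested as a set. At E13.5 edgeR called 2 higher and 1 lower of 27 JAK-STAT genes and of 22 lipid droplet genes. Of 31 BAR domain and podosome genes it called 1 higher and 2 lower. These shares lay above the 4.90% of all genes called there. At E11.5 the shares are to be read against 2.13% of all genes called in XY and 0.172% in XX.

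The nearest genes on either side, by their order in RefSeq (GRCm38.p6), were Dazap2, Smagp, Cela1 and Galnt6 for Bin2, Fem1a, Ticam1, Arrdc5 and Uhrf1 for Plin3, and Mir6769b, Unc13a, B3gnt3 and Fcho1 for Jak3. Of these, Uhrf1, a gene needed for maintenance of DNA methylation, was called in E11.5 XY (1.38, SE 0.30, edgeR adjusted p = 0.0261), and no tested neighbour was called in E11.5 XX or E13.5 XY. Insl3, the insulin-like hormone gene of Leydig cells, overlaps Jak3, and reads in the overlap cannot be assigned to either without the counting rule. Insl3 was at 0 to 4.38 CPM in E11.5 bulk libraries, at 0 in all 7 E13.5 libraries, and at or under 1.04 CPM in the mean of each E12.5 group. Bin2 overlaps the microRNA gene Mir6961.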

How the data were processed

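Bulk RNA (RNeasy Micro, Ovation RNA-seq System V2) and Smart-seq2 cells were deposited by the authors as whole-number counts per gene symbol in 5 tables. The submitters' processing notes name HISAT2, edgeR and mm9, without their roles (per the labels). How reads were counted, on which annotation and strand, is not given in the sources used here. The 8 bisulfite samples were not analysed here.

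The members and gene lists were chosen with earlier results of these data known. Bulk tables were fitted one at a time with edgeR 4.0.16 (R 4.3.3), using filterByExpr, TMM and its quasi-likelihood test. Genes were called at a Benjamini-Hochberg adjusted p under 0.05. Interactions used the joined tables. SE is the size of the log2 fold change divided by the square root of F. CPM used TMM factors over the 22 bulk libraries, or total counts in cells. The fit was tested on simulated counts.

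Cells with at least 50000 counts and 1500 genes were kept (127 of 192), and counts were summed per embryo. Presence in a cell means 10 CPM or more. Intervals of shares are Clopper-Pearson 95% intervals. Limits for a count of 0 use 3 cells of the total, and floors use 3 counts over the group. Both cover counting error alone, since PCR copies carry no molecular identifiers. The background of E12.5 shares holds genes present in at least 10% of kept cells. Doublets were not called, since single cells were sorted into wells.

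Embryos were known only by group, from the headers. No label says that libraries came from separate embryos, so p-values reflect only the spread among them. No libraries or cells were identical. Named genes were the members, Eed, Stra8, Bin1, Bin3, Plin2, Jak1, Jak2 and Tyk2, up to 4 called genes per list and comparison, the 2 nearest neighbours on each side, and the 5 genes of highest phi or r. Of the 10 genes of largest gap at E12.5 in each direction, some of those nearest in rank to Bin2 and Jak3 are given. Some genes that these rules select are not reported here. Alternatives were DESeq2 1.42.0, total-count scaling, no filter, all 22 libraries in 1 fit, the replicate number as a block, leaving out each library or embryo, and other thresholds for cells. For Plin3 at E11.5, leaving out libraries in a fit with no filter was added after seeing the data.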

Additional observations from a re-analysis of the deposited data

Results flagged for a closer look

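In the 4 bulk groups of 4 libraries, the 3 genes and Eed gave 16 sets of values, and 1 value of Bin2 and 1 of Plin3 stood far from the others of its set, where chance marks about 1 in 20 sets. Bin2 was at 24 CPM in E11.5 XY Control 1, and at 1.65 to 4.82 CPM in the other Controls. Plin3 was at 5.97 CPM in E13.5 XY Control 4, and at 1.30 to 1.85 CPM in the other Controls.

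The 65 E12.5 wells left out for low depth (median 1717 counts) also held counts of the members. Bin2 was at 117 CPM over the 34 ECKO wells, from 26 counts in 9 wells, and had 2 counts in 31 Control wells, where the floor of 3 counts is 24 CPM. Jak3 was at 295.9 CPM in the Control wells and 49.4 CPM in the ECKO wells. Plin3 had 2 counts in each, under both floors. These wells also belong to the embryos the genes were picked from.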

How the results depend on the processing

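For the members, DESeq2 and the joint fit of all 22 libraries changed 1 call, Plin3 at E13.5 (2.97 and 2.89 on the log2 scale). Plin3 at E11.5, which the filtered fits by table did not test, entered the joint fit and was not called. Its log2 values there were 4.77 in XY and 8.23 in XX, the latter against Controls with no count. With single libraries left out, the log2 values ranged from 1.12 to 2.89 (Bin2) in E11.5 XY. In E13.5 XY they ranged from 2.63 to 3.70 (Plin3) and from -8.22 to -1.73 (Jak3). In Controls between stages they ranged from 1.53 to 3.15 (Bin2) and from -2.29 to -1.54 (Jak3, called without E13.5 ECKO 1 or ECKO 3), and the stage difference of Jak3 from -7.29 to -0.87. The sex difference changed sign for Bin2 (-1.04 to 0.72; -0.22 without XX Control 3, -0.66 without XX ECKO 1, -1.04 without XY Control 1) and for Jak3 (-0.66 to 0.12; 0.12 without XY ECKO 1). Total-count scaling changed no call of a member, while it moved the median of all genes from 0.05 to 0.28 at E13.5 and from 0.00 to 0.13 for the stage difference. The replicate block changed no call of a member (Bin2 at E13.5 3.75, adjusted p = 0.0272). Control and ECKO libraries of equal number had correlations of -0.128 to 0.0959 once group means were removed. In the XY tables no such pair was the best match for both libraries. In E11.5 XX, numbers 1 (0.0487) and 3 (0.0959) were, and whether these libraries are related is not known.

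The number of genes called moved more. For E11.5 XY it was 759 with DESeq2, 457 without a filter, 23 in the joint fit, 151 with the replicate block and 64 to 333 with single libraries left out. For E11.5 XX it was 315, 217, 9, 37 and 0 to 26, and for E13.5 XY 1696, 1268, 2987, 68 and 94 to 2141. The sex difference gave 1 with DESeq2 and 0 to 1 with libraries left out, and the stage difference 850 with DESeq2, 306 without a filter and 30 to 1267. The cause of these moves was not tested.

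At E12.5, the difference in XY Plin3 shares was 27.8 percentage points for any count and 13.9 at 50 CPM, against 19.4. The mean share of ECKO cells with Bin2 and Jak3 together was 40.1% and 10.8%, against 25.4%, and with Plin3 and Jak3 22.3% and 3.31%, against 12.4%. Limits are few embryos and libraries, E11.5 XX depths down to 415291 counts, and 10 Plin3 counts in the E11.5 XY Controls.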
